A study of Homo sapiens with 6 samples.

Results

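Ribosomal protein genes code for the proteins of the cytosolic ribosome. They were chosen by their symbols as autosomal protein-coding genes named RPL (large subunit) or RPS (small subunit) with a number and at most a short suffix, and 76 of 19126 autosomal protein-coding genes in the RefSeq table of GRCh38 met this rule. Of these, 46 were RPL and 30 were RPS genes. A gene was taken as its body plus 1 kb on each side. The genes were short, with a median body of 5.05 kb (range 0.772 to 27.7 kb) against 24.7 kb for the 19050 other genes. They were therefore set beside 5387 other autosomal protein-coding genes of similar length, with bodies of 2.38 to 14.1 kb, the 10th to 90th percentile of the ribosomal protein genes.

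MAR-seq was used to map the DNA that stays with the nuclear matrix, the scaffold left in a nucleus after extraction with detergent and digestion with restriction enzymes, in H1 cells, an established line of human pluripotent stem cells. The 6 samples formed 3 groups of 2. The group hPSC had no hairpin, shLUC carried a hairpin directed at LUC as the control, and shHNRNPU carried one directed at HNRNPU, a nuclear protein that binds RNA. Each group was given as 1 list of regions, all 400 bp wide, with 40106 regions in hPSC, 39368 in shLUC and 36277 in shHNRNPU. The lists hold positions and no heights, so a gene either holds a region in a list or does not, and no value below has a replicate error. Read depth, RNA levels and the efficiency of the knockdown are unknown here, and the pluripotent state of the cells could not be checked from these lists.

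Ribosomal protein genes are among the most active genes of growing cells, and their products are made in equal amounts to be built into ribosomes in the nucleolus. Their mRNAs typically start with a C followed by a run of pyrimidines, the terminal oligopyrimidine tract through which their translation is coupled to growth signals. Many of them carry small nucleolar RNA genes in their introns, and processed copies without introns are scattered over the genome as pseudogenes. Matrix attachment regions have been described both as anchors of chromatin loops and at actively transcribed genes.

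In hPSC most regions of these genes lay at a start, so promoters are shown first. RefSeq promoter entries (GRCh38.p14, 250 bases before to 50 after an annotated start) were found for 59 of the 76 genes. The 17 genes without an entry include RPL23, RPL23A, RPL30, RPL37, RPL39L, RPL3L, RPL5, RPL7, RPL8, RPS15A, RPS2 and RPS20. The 6 sequences below run from 250 bases before the start to 30 bases after it. Capitals mark the recognition sites of the 6 restriction enzymes used to digest the nuclei (CCGG for MspI, GGCC for HaeIII, GTAC for RsaI, AGCT for AluI, GGATCC for BamHI and CAGCTG for PvuII, which contains the AluI site). RPL26L1, a paralogue of RPL26, was the only gene whose entry overlapped a region in all 3 lists. RPL37A and RPS3A had regions in hPSC and shHNRNPU but not in shLUC, and RPL32 in hPSC alone, and these 3 were chosen after their values were seen. RPL11 and RPL13A are the first by symbol among the genes with 0 regions in all lists.
RPL26L1 (chr5:172958630-172958909, plus strand): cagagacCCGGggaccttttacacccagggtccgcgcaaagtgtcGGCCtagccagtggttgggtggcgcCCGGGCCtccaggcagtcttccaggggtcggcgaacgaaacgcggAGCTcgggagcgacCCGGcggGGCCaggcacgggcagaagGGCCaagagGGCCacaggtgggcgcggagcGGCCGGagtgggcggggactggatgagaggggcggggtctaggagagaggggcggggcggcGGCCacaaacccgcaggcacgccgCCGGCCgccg
RPL37A (chr2:216498594-216498873, plus strand): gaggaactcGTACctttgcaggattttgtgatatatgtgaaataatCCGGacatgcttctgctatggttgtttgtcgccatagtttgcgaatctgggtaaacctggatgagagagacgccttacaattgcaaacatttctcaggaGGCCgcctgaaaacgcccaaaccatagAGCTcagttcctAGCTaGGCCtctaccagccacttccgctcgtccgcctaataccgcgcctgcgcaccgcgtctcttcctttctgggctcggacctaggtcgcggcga
RPS3A (chr4:151099378-151099657, plus strand): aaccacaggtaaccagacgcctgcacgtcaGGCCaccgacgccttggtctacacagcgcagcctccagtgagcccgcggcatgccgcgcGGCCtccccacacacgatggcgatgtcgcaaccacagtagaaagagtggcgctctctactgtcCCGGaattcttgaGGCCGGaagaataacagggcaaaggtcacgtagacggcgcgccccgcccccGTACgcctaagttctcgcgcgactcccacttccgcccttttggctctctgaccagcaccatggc
RPL32 (chr3:12841553-12841832, minus strand): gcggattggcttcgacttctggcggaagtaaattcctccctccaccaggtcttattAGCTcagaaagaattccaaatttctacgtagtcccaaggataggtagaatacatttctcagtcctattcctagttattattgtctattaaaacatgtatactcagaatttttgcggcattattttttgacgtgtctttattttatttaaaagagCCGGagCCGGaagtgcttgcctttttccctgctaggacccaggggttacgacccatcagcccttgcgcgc
RPL11 (chr1:23691529-23691808, plus strand): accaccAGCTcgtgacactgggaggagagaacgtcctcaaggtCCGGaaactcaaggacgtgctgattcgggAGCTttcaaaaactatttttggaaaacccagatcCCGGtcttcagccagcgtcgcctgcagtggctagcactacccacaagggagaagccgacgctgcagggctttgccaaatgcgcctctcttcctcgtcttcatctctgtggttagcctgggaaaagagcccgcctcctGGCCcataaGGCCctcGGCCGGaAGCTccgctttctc
RPL13A (chr19:49487358-49487637, plus strand): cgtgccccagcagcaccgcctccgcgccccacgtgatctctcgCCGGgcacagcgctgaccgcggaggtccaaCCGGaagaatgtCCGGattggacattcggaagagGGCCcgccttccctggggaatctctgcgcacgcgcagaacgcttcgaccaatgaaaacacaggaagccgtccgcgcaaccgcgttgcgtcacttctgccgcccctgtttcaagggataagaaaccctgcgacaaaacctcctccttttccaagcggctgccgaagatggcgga
The RPL26L1 promoter had 14 cut positions in the printed stretch, RPL37A 6, RPS3A 6, RPL32 3, RPL11 9 and RPL13A 4. The hPSC region of RPS3A covered all 280 printed bases, that of RPL32 covered 229, that of RPL37A 205 and that of RPL26L1 141.

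The share of ribosomal protein genes with a region was above that of other genes of similar length in untreated cells and below it in shLUC. In shHNRNPU it was also lower, but its interval included the share of the other genes. A region was present in hPSC at 49 of 76 genes (64.5%, exact 95% binomial interval 52.7 to 75.1%), in shLUC at 16 (21.1%, interval 12.5 to 31.9%) and in shHNRNPU at 22 (28.9%, interval 19.1 to 40.5%). The background over all autosomal protein-coding genes was 64.5% in hPSC, 57.0% in shLUC and 56.3% in shHNRNPU, which is dominated by longer genes. Among other genes of similar length it was 45.3% in hPSC (2439 genes), 37.3% in shLUC (2008 genes) and 36.4% in shHNRNPU (1961 genes). The share of ribosomal protein genes minus that of genes of similar length was 19.2 percentage points in hPSC, -16.2 points in shLUC and -7.46 points in shHNRNPU. When 5 kb were added to each side of the body in place of 1 kb, the shHNRNPU difference turned to 2.55 points, and the shLUC difference shrank to -6.88 points with a share of 42.1%. The intervals count genes only and do not cover variation between cultures, and no test between lists was possible with 1 list per group. Expression was not measured here, so the other genes of similar length hold active and silent genes alike.

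**Figure D1:**
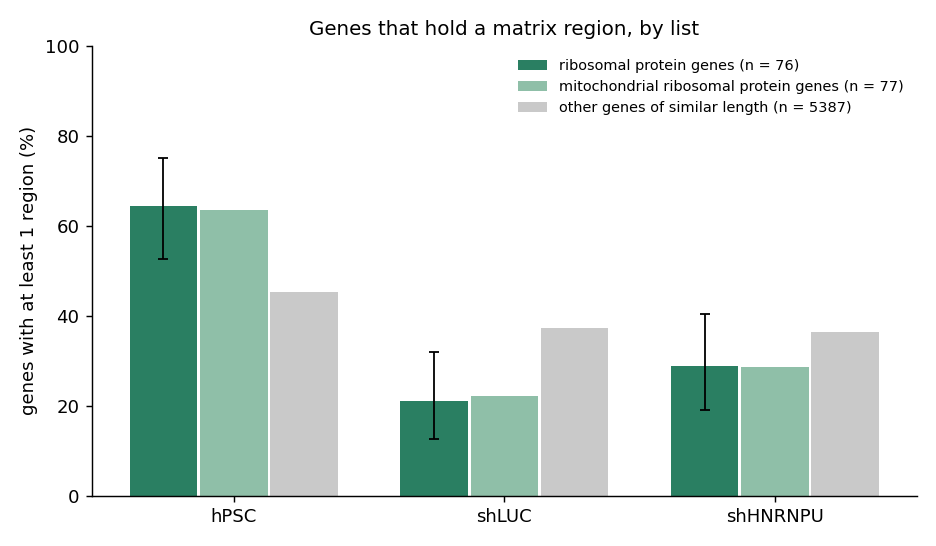
Share of genes (%, y axis) with at least 1 region in each list (x axis) for the 76 ribosomal protein genes, 77 mitochondrial ribosomal protein genes and 5387 other genes with bodies of 2.38 to 14.1 kb, the 10th to 90th percentile of the ribosomal protein genes. The mitochondrial set was not limited to this length range and had a median body of 8.62 kb. Bars on the first set are exact 95% binomial intervals over genes. The first set lies above the other genes in hPSC (64.5% against 45.3%) and below them in shLUC (21.1% against 37.3%).

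In both subunits the share was highest in hPSC and lowest in shLUC, with no separate comparison by length. Of the 46 RPL genes, 31 (67.4%) held a region in hPSC, 10 (21.7%) in shLUC and 12 (26.1%) in shHNRNPU. Of the 30 RPS genes, 18 (60%) held a region in hPSC, 6 (20%) in shLUC and 10 (33.3%) in shHNRNPU. The last share was near the 36.4% of genes of similar length. No gene held more than 2 regions in any list. Summed over the genes there were 55 regions in hPSC, 18 in shLUC and 24 in shHNRNPU, all of them distinct. The mean per gene was 0.724 in hPSC against 0.511 at genes of similar length, 0.237 against 0.426 in shLUC and 0.316 against 0.407 in shHNRNPU.

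The genes were next compared within quintiles of length. There, the share in hPSC was above that of other genes in each of the 5 quintiles, by 12.8 to 30.8 percentage points. In shLUC it was below in 4 quintiles, by differences of -23.4 to -7.58 points, and 2.11 points above in the shortest quintile, where 4 of 16 genes held a region. In shHNRNPU it was below in all 5, by differences of -10.7 to -2.59 points. Weighting the other genes over these quintiles gave 42.6% in hPSC, 35.2% in shLUC and 34.9% in shHNRNPU.

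**Figure D2:**
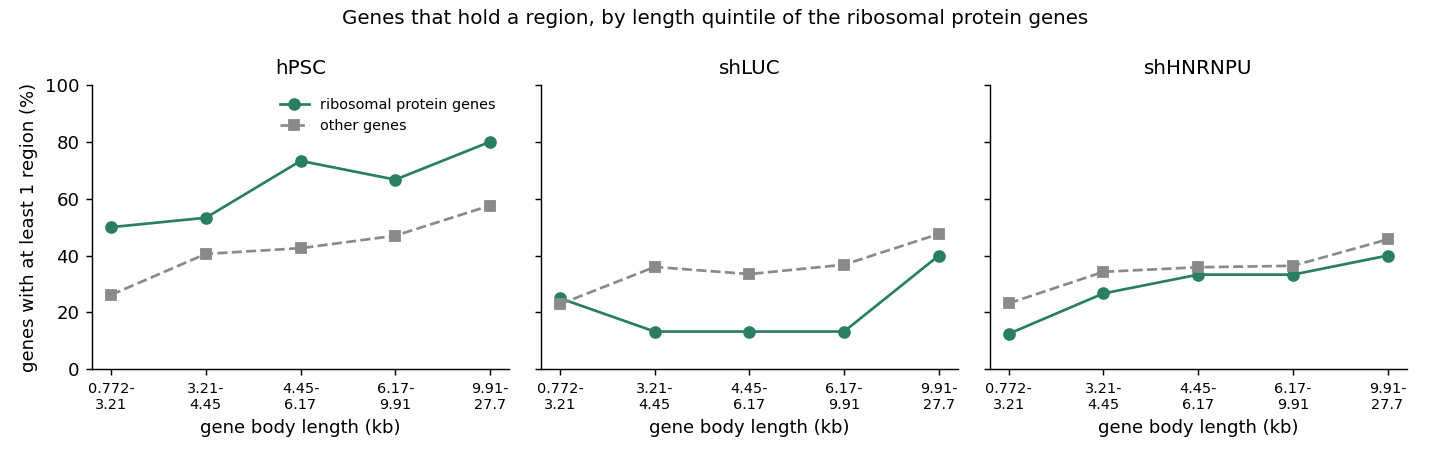
Share of genes with at least 1 region (%, y axis) by gene body length (kb, x axis, quintiles of the 76 ribosomal protein genes, 15 or 16 genes each), for ribosomal protein genes (circles) and all other genes in the same length range (squares). The ribosomal protein genes lie above other genes throughout in hPSC, for example 73.3% against 42.6% at 4.45 to 6.17 kb, and below them in the hairpin lists except for the shortest quintile of shLUC.

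The lists differed less in the surroundings of the genes than inside them. In flanks from 10 to 100 kb on each side there were 2.64 regions per 100 kb in hPSC, 2.40 in shLUC and 2.11 in shHNRNPU. Inside the windows there were 8.02 per 100 kb in hPSC, 2.52 in shLUC and 3.41 in shHNRNPU. The windows thus exceeded their own flanks 3.04-fold in hPSC, 1.05-fold in shLUC and 1.62-fold in shHNRNPU, against 2.12-fold, 1.92-fold and 2.01-fold for other genes of similar length. With flanks ending at 50 kb the shLUC ratio was 0.93. Of the windows, 39 touched that of another protein-coding gene. The 37 genes whose window met no other held a region in 67.6% of cases in hPSC, 18.9% in shLUC and 27.0% in shHNRNPU, against 38.3%, 34.4% and 34.0% of genes of similar length with such windows.

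The regions were then followed gene by gene. A region was present in hPSC only at 31 genes (40.8%, against 19.8% of genes of similar length). These include RPL12, RPL13, RPL15, RPL19, RPL22, RPL23, RPL26, RPL27A, RPL28, RPL31, RPL32, RPL34, RPL36, RPL38, RPL39L, RPL6, RPL7L1, RPL8, RPL9, RPS16, RPS18, RPS23, RPS24, RPS25, RPS26 and RPS28. A region in shLUC only was held by 0 genes, against 3.58% of genes of similar length. A region in shHNRNPU only was held by 4 genes (RPL30, RPL35, RPL5 and RPS9; 5.26%, against 2.67%). Both hairpin lists, but not hPSC, held a region at 4 genes (5.26%, against 12.8%). Another 19 genes (25.0%, against 35.7%) held 0 regions in all 3 lists. These were RPL11, RPL13A, RPL14, RPL17, RPL18, RPL22L1, RPL27, RPL29, RPL4, RPL7A, RPS10, RPS12, RPS13, RPS14, RPS2, RPS21, RPS27, RPS27A and RPS27L. They include RPL11, which with RPL5 forms the particle that restrains MDM2, and RPS14, whose loss underlies the anaemia of the deleted long arm of chromosome 5. Their median body was 3.98 kb, against 5.68 kb for the genes with a region in hPSC only. Of the latter, 23 had a promoter entry, and at 17 of these the hPSC region was centred within 500 bp of a start.

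**Figure D3:**
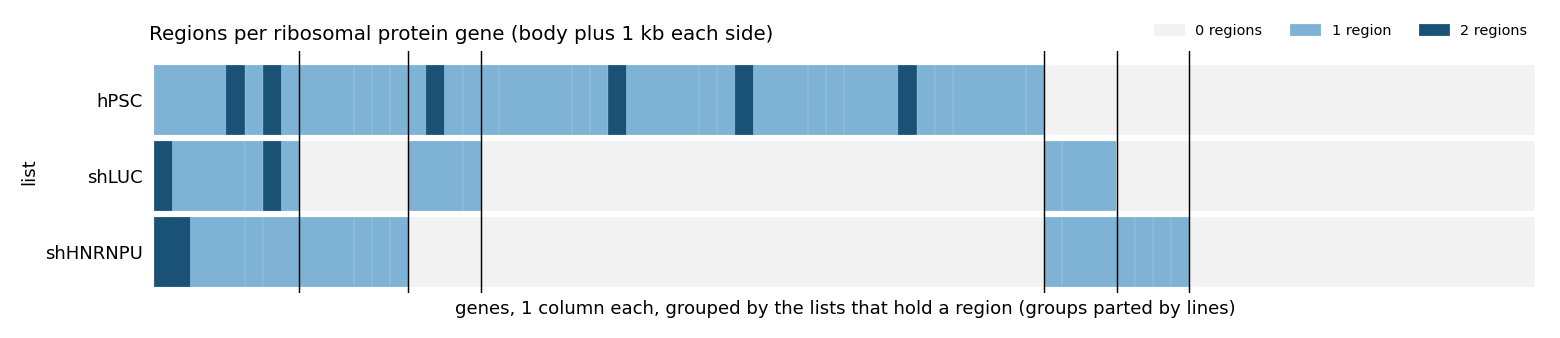
Number of regions (colour, 0 to 2) in the window of each of the 76 ribosomal protein genes (x axis, 1 column per gene) in the hPSC, shLUC and shHNRNPU lists (y axis), with genes grouped by the lists that hold a region. The block of 31 genes with regions in hPSC only is the widest, and the 19 genes at the right hold 0 regions in all lists.

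All 3 lists held a region at 8 genes: RPL26L1, RPL35A, RPL37, RPL7, RPS19, RPS20, RPS29 and RPS7. This was 10.5% of the genes, against 16.4% of genes of similar length. The same gene did not always mean the same DNA, but in RPL37, RPS7, RPS20 and RPL26L1 regions of all 3 lists overlapped. Only RPL37 (chromosome 5), a large-subunit protein with a zinc finger, held 1 region with the same coordinates in all 3 lists, at 40825448 to 40825847 in its body. In RPS7 (chromosome 2) both hairpin lists held 3575365 to 3575764 and hPSC held 3575434 to 3575833, and these overlapped near the start. In RPS20 (chromosome 8), the region at the gene end was 56074217 to 56074616 in both hairpin lists and 56074361 to 56074760 in hPSC. In RPL7 (chromosome 8), the hPSC region at 73294129 to 73294528 spanned the gene end, whereas the hairpin lists shared a region outside the body at 73294743 to 73295142. RPS19 (chromosome 19), the gene most often mutated in Diamond-Blackfan anaemia, held 2 hPSC regions, at 41859768 to 41860167 before the start and at 41871799 to 41872198 near the other end. Both hairpin lists instead held 1 region inside it, at 41865790 to 41866189. RPL26L1 (chromosome 5) held the region 172958790 to 172959189 near its start in both hairpin lists, overlapped by the hPSC region 172958769 to 172959168, and both hairpin lists held a further region upstream at 172952878 to 172953277. The start of its promoter entry lies inside the gene body. RPS29 (chromosome 14) held hPSC regions at 49586374 to 49586773 in its body and at 49598786 to 49599185 before its start. Both hairpin lists held 49580714 to 49581113 in its body, and shLUC also held 49598822 to 49599221, which overlapped the hPSC region before the start. RPL35A (chromosome 3) held 197952285 to 197952684 in its body in both hairpin lists. Its hPSC region lay at its start, where shHNRNPU held the same region and shLUC held none.

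The position of the regions along the genes was compared next. Of the 55 hPSC regions, 31 (56.4%) lay across an end of the gene body, against 3 of 18 (16.7%) in shLUC and 10 of 24 (41.7%) in shHNRNPU. Regions across an end were not counted at other genes. Region centres within 500 bp of an end made up 74.5% in hPSC, 61.1% in shLUC and 70.8% in shHNRNPU. At other genes of similar length these shares were 59.6%, 42.0% and 45.1%. From the region centre to the nearest gene end, the median distance was 0.138 kb for hPSC regions, 0.366 kb for shLUC regions and 0.297 kb for shHNRNPU regions. For other genes of similar length it was 0.33 kb, 0.721 kb and 0.635 kb in the same order. These other genes were longer, with a median body of 7.38 kb against 5.05 kb, and positions were not adjusted for length.

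With strand taken from the promoter entries, 29 of 59 genes (49.2%, interval 35.9 to 62.5%) had an hPSC region centred within 500 bp of an annotated start, against a background of 32.4% for genes of similar length with an entry. In shLUC 6 genes (10.2%, interval 3.82 to 20.8%) had one, against 16.7%, and in shHNRNPU 10 genes (16.9%, interval 8.44 to 29.0%), against 18.0%. Limiting the other genes to 2303 with promoter GC content of 47.5 to 67.4%, the 10th to 90th percentile of the ribosomal protein genes, gave 36.1% in hPSC, 12.7% in shLUC and 13.0% in shHNRNPU, so the shHNRNPU difference turned from -1.0 to 3.95 points. The median hPSC region centre lay 5 bp before the start (a signed distance of -5 bp), with 29 of 42 regions (69.0%) within 500 bp. At genes of similar length the median was 119 bp after the start, and 60.5% of regions lay within 500 bp. The share near a start in hPSC was not particular to these genes. Of the mitochondrial ribosomal protein genes with an entry, 36 of 69 (52.2%) had an hPSC region near a start. So did 40 of 67 ribosome biogenesis factors (59.7%) and 21 of 35 translation factors. Among cytosolic ribosome genes outside the symbol rule it was 3 of 7 (42.9%). These near-start shares were not adjusted for length, and the shares given for these lists below count a region anywhere in the window.

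The hPSC regions centred closest to a start were picked out after their values were seen. That of RPL32 was centred 1 bp after the start, that of RPS28 (chromosome 19, 8321306 to 8321705) 9 bp after it and that of RPL36 (chromosome 19, 5690111 to 5690510) 15 bp after it. Those of RPS16 and RPL35A lay before the start, at signed distances of -11 and -17 bp. RPS6 (chromosome 9), the ribosomal protein phosphorylated by S6 kinases, held an hPSC region at 19380133 to 19380532, at a signed distance of -96 bp from its start. RPL3 (chromosome 22), which lies close to the peptidyl transferase centre, held one at 39319662 to 39320061, just outside its body.

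**Figure D4:**
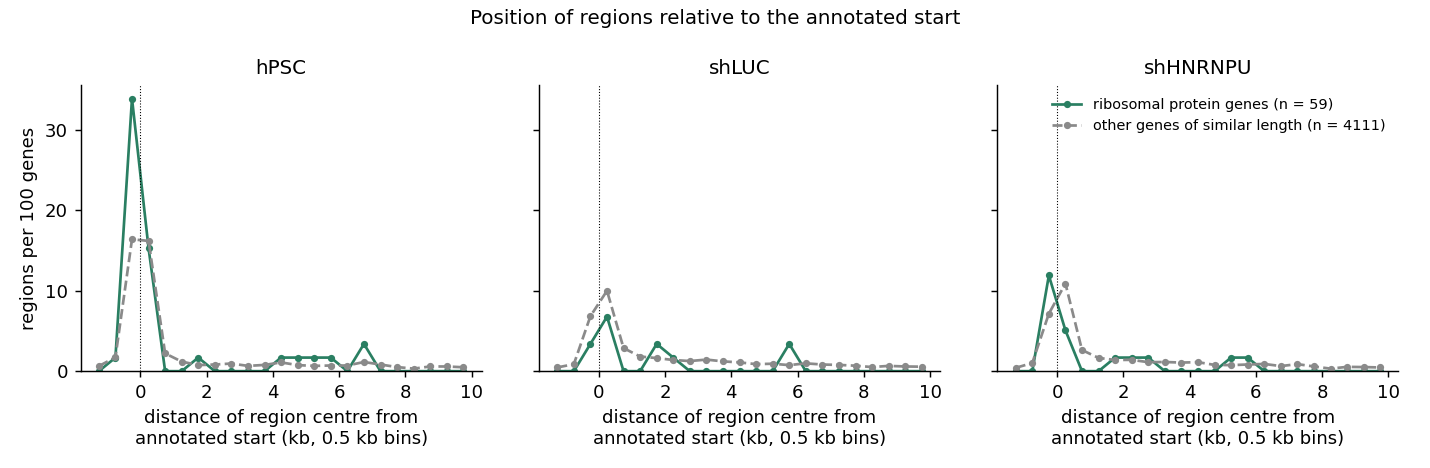
Regions per 100 genes (y axis) by distance of the region centre from the nearest annotated start (kb, x axis, bins of 0.5 kb, negative before the start) for 59 ribosomal protein genes (solid) and 4111 other genes of similar length (dashed), 1 panel per list. In the bin just before the start the ribosomal protein genes reach 33.9 per 100 genes in hPSC against 16.4 for other genes, and 3.39 against 6.84 in shLUC.

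Promoters with and without an hPSC region near a start were compared in composition. Median GC content was 59.3% for the 29 with a region and 59.8% for the 30 without, and the median number of enzyme cut positions in the 300 bases was 6 in both. For 4111 other genes of similar length the median GC content was 61.7% and the median number of cut positions 6. A C followed by at least 4 pyrimidines within 5 bases of the start was present in 44 of 59 ribosomal protein promoters (74.6%). It was present in 22.1% of all 15101 autosomal promoters examined. Of the ribosomal protein promoters with and without an hPSC region near a start, 75.9% and 73.3% had it. Searched on both strands, the ETS-type sequence CCGGAAG, which contains the MspI site, was in 35.6% against 14.3% of all promoters. GGGCGG was in 52.5% against 58.7%, CCAAT in 30.5% against 36.1% and TATAAA in 10.2% against 9.83%.

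It was next asked how the shHNRNPU list differed from its control at these genes. Relative to shLUC, 11 genes (14.5%) held more regions in shHNRNPU and 5 (6.58%) fewer, with 60 equal, of which 50 were at 0 in both. Among genes of similar length 8.61% held more and 10.3% fewer. Over all autosomal protein-coding genes 14.3% held more and 19.3% fewer. The counts are small and rest on single regions with no height, so none of these changes was tested. When the body alone was counted, 9 genes held more and 1 held fewer, and with 5 kb on each side 17 held more and 9 fewer.

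The 11 genes with more regions in shHNRNPU were RPL24, RPL3, RPL30, RPL35, RPL35A, RPL37A, RPL5, RPS15A, RPS3A, RPS6 and RPS9. Each went from 0 regions in shLUC to 1 in shHNRNPU, except RPL35A, which went from 1 to 2. Of these 11 further regions, 9 were centred within 500 bp of a gene end (81.8%, against 50% of 532 such regions at genes of similar length), and 5 overlapped an hPSC region (45.5%, against 40.6%). The shares near a gene end were not adjusted for gene length. In RPL35A (chromosome 3), another gene mutated in Diamond-Blackfan anaemia, the further region 197949974 to 197950373 had the same coordinates as the hPSC region at its start. In RPS15A (chromosome 16) the further region 18790185 to 18790584 was also identical to that of hPSC. RPL37A (chromosome 2) held 216498614 to 216499013, which overlapped the hPSC region 216498669 to 216499068 of the promoter printed above. RPS3A (chromosome 4) held 151099230 to 151099629, which overlapped the hPSC region 151099360 to 151099759. In RPL24 (chromosome 3) the regions were 101686937 to 101687336 in shHNRNPU and 101686577 to 101686976 in hPSC. The further regions of RPL5 (chromosome 1, 92831812 to 92832211), RPL30 (chromosome 8, 98045516 to 98045915), RPL35 (chromosome 9, 124861918 to 124862317) and RPS9 (chromosome 19, 54200584 to 54200983) spanned a gene end and had no hPSC region. In RPL3 the further region lay in the body (39316567 to 39316966), and in RPS6 it lay outside the body at 19374581 to 19374980, so neither met the hPSC region at the start of its gene.

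The 5 genes with fewer regions in shHNRNPU were RPL10L, RPL21, RPL3L, RPL41 and RPS29. RPL10L (chromosome 14), an intronless paralogue expressed mainly in testis, held 46651515 to 46651914 in shLUC and 0 regions in shHNRNPU. RPL3L (chromosome 16), the paralogue of striated muscle, held 1943017 to 1943416 in shLUC alone, outside its body, and 1952906 to 1953305 in hPSC. RPL41 (chromosome 12), the smallest of the ribosomal proteins, held 56117989 to 56118388 in both shLUC and hPSC. RPL21 (chromosome 13) held 27257240 to 27257639 in shLUC and in hPSC, which also held 27251243 to 27251642 across the start. In RPS29 the shLUC region without a shHNRNPU counterpart was 49598822 to 49599221, before the start. Of these 5 regions, 4 overlapped an hPSC region (80%, against 26% of 630 such regions at genes of similar length), the exception being that of RPL3L. The 7 paralogues with an added L in their symbol held a region in 3 cases in shLUC and in 1 in shHNRNPU. Without them the shares of the remaining 69 genes were 63.8% in hPSC, 18.8% in shLUC and 30.4% in shHNRNPU.

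Overlap between the hairpin lists was then counted. Of the 18 shLUC regions, 13 overlapped a shHNRNPU region (72.2%, interval 46.5 to 90.3%), against 72.7% at genes of similar length. Of all autosomal shLUC regions, 70.9% did. All 13 had the same coordinates, as did 1581 of 1582 overlapping regions at genes of similar length and 27542 of 27545 over all autosomes. Identical coordinates were thus a property of the hairpin lists as a whole and not particular to these genes. In the other direction, 13 of 24 shHNRNPU regions overlapped a shLUC region (54.2%, interval 32.8 to 74.4%), against 75.9% at genes of similar length. Over all autosomes 27545 of 35787 shHNRNPU regions did. RPS3 (chromosome 11, 75399249 to 75399648), RPS15 (chromosome 19, 1439949 to 1440348), RPL10A (chromosome 6, 35468429 to 35468828) and RPL23A (chromosome 17, 28719496 to 28719895) held the same region in both hairpin lists and 0 regions in hPSC.

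The untreated and the hairpin control lists were also compared. More regions in hPSC than in shLUC were found at 39 genes (51.3%, against 26.8% of genes of similar length and 32.4% of all), and fewer at 5 (6.58%, against 18.8% and 26.1%). Of the 55 hPSC regions, 8 overlapped a shLUC region (14.5%, interval 6.5 to 26.7%), against 22.5% at genes of similar length and 14.0% of all autosomal hPSC regions, and 9 overlapped a shHNRNPU region (16.4%, interval 7.77 to 28.8%), against 24.5% and 15.6%. In the other direction, 8 of 18 shLUC regions overlapped an hPSC region (44.4%, interval 21.5 to 69.2%), against 26.2% at genes of similar length and 14.2% of all autosomal shLUC regions. Between shHNRNPU and hPSC, 10 genes held more regions in shHNRNPU (13.2%, against 17.4% of genes of similar length and 23.8% of all) and 37 fewer (48.7%, against 26.8% and 33.6%). The comparison of hPSC with shLUC shares the shLUC list with that of the knockdown. The hPSC samples lack a hairpin, and the labels give no batch, so the hairpin and any difference in preparation or region calling cannot be told apart.

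Other genes of the ribosome and of translation were examined from lists chosen by name, limited to autosomes. The mitochondrial ribosomal proteins, which serve the ribosome of the organelle, had nearly the same shares as the cytosolic ones, with 63.6% of 77 genes in hPSC, 22.1% in shLUC and 28.6% in shHNRNPU. Their median body was 8.62 kb, and other genes weighted over their length quintiles gave 51.1%, 43.3% and 42.7%. Ribosome biogenesis factors, which process ribosomal RNA and assemble the subunits, held a region in 74.7% of 79 genes in hPSC, 50.6% in shLUC and 45.6% in shHNRNPU, with length-weighted values for other genes of 61.2%, 52.4% and 51.8%. Translation factors held a region in 72.7% of 44 genes in hPSC, 52.3% in shLUC and 45.5% in shHNRNPU, against 61.3%, 52.7% and 51.9%. All 3 of these lists lay above the length-weighted value in hPSC. Of the 8 autosomal ribosome genes with other symbols, 3 held a region in hPSC (37.5%), close to their length-weighted value of 40.1%. In shLUC the mitochondrial ribosomal proteins differed from it by -21.3 points, the biogenesis factors by -1.81 and the translation factors by -0.475.

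Of these 8 genes, RPLP0, the base of the ribosomal stalk, held 1 region in each list. RPLP1 and RPSA held 1 in hPSC only, RACK1 1 in shLUC only and RPL36AL 1 in shHNRNPU only. FAU, which codes for a ubiquitin-like protein fused to a ribosomal protein, held 0 in all lists, as did RPLP2. The genes of the other lists with most regions included long ones, namely EIF4G3 (9 in hPSC, 10 in shLUC and 10 in shHNRNPU over 371.0 kb), EIF3H (5, 5 and 6 over 124.0 kb) and DDX10 (4, 6 and 6 over 276.0 kb). The gene for a mitochondrial ribosomal protein with most regions was MRPL23 (1 in hPSC, 4 in shLUC and 4 in shHNRNPU over 67.6 kb). EIF2A, an initiation factor, held 1 region in hPSC, 3 in shLUC and 2 in shHNRNPU over 39.2 kb.

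Of the ribosomal protein genes, 25 carried 55 small nucleolar RNA genes in their bodies. They held a region in 56.0% of cases in hPSC, 20% in shLUC and 32.0% in shHNRNPU, against 68.6%, 21.6% and 27.5% of the 51 others. Among other genes of similar length the hosts were higher in hPSC, with 74.5% against 45% of genes without such RNAs. Their shares were 43.6% against 37.2% in shLUC and 29.1% against 36.5% in shHNRNPU. These hosts were 55 genes with a median body of 9.41 kb, against 7.35 kb for those without, and the shares were not adjusted for length.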

How the data were processed

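MAR-seq was performed on H1 cells in 3 groups with 2 samples each. The submitters' processing notes name cutadapt, Bowtie2, SAMtools, MACS2, deepTools and hg38, with no versions or settings. The threshold, the use of the sonicated input, the treatment of reads that map to several places and how 2 samples became 1 list are not given in the sources used here. Reads of ribosomal protein exons can also match pseudogenes. The lists deposited by the authors hold region positions and a score of 0 in every row, so the score was not used. Positions are counted from 1.

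A gene held a region if at least 1 bp overlapped its body plus 1 kb each side (RefSeq, GRCh38.p14). Intervals are exact 95% Clopper-Pearson intervals over genes or regions and cover counting only. No test was run, as each group has 1 list. The number of lists limits the precision, and depth is unknown. All ribosomal protein genes were counted, and a few genes are not reported by name here. By rule, coordinates were given for genes with regions in all 3 lists, for those that differed between hairpin lists and for the 5 with most regions, for which ties went by symbol. Those of RPS28, RPL36, RPS3, RPS15, RPL10A and RPL23A were added after their values were seen. From the pathway lists, the ribosome genes outside the rule and the 5 others with most regions were named. Promoters were printed for genes overlapped in all 3 lists and the first 2 by symbol with 0 regions, with exceptions stated beside them. For composition the most upstream entry of a gene was used, and distances were taken to the nearest start with an entry, which can lie inside the gene body. Alternatives changed the window, the overlap, the gene set, the length range and the flanks. No methods were taken from a publication. The genes, the pathway lists and the comparisons were chosen with earlier results of these data known. Counting code was tested on simulated regions against a naive count. Counting ran in Python 3.11.15 (pandas 2.3.3 and numpy 2.4.6), intervals in scipy 1.17.1 and plots in matplotlib 3.10.9.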

Additional observations from a re-analysis of the deposited data

How the results depend on the processing

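Of 87 recomputed values for 21 results, 75 kept their direction and stayed within the interval, or for counts within 1.5 times, the count of the value reported, 9 moved further and 3 turned direction. Alternatives on promoter GC content, on distance to a start and on gene ends were chosen after seeing the data. With 5 kb added to each side, the share of ribosomal protein genes with a region was 42.1% in shLUC and 50% in shHNRNPU, the difference from genes of similar length in shHNRNPU turned to 2.55 points, 17 genes held more and 9 fewer regions in shHNRNPU than in shLUC, and 8 held fewer in hPSC than in shLUC. With the gene body alone, 1 gene held fewer regions in shHNRNPU and 3 fewer in hPSC than in shLUC, and 90.9% of 11 shLUC regions overlapped a shHNRNPU region. With windows that meet no other gene, the hPSC difference rose to 30.5 points. With flanks ending at 50 kb the shLUC ratio of windows to flanks was 0.93, and within the members' promoter GC range the shHNRNPU difference near a start was 3.95 points. The cause was not tested. The hPSC difference stayed between 16.6 and 30.5 points and the shLUC difference between -18.4 and -6.88 points over all their alternatives. No paired analysis was possible because only 1 list stands for each group, and for the same reason no replicate could be left out. Without heights, a region just under the calling threshold cannot be told from an absent one.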

Other observations

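Ribosomal protein pseudogenes, most of them intronless copies, were counted in the same way as their parent genes. Of 1796 autosomal pseudogenes named after ribosomal proteins (median length 529 bp, plus 1 kb each side), 4.45% held a region in hPSC, 4.57% in shLUC and 3.84% in shHNRNPU. For 3226 other pseudogenes of similar length the shares were 5.33%, 4.74% and 4.59%. The lists do not say whether reads with several matches were kept, and the part of this in the values was not tested.

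On chromosome 19, which holds 12 of the ribosomal protein genes, 66.7% held a region in hPSC, 16.7% in shLUC and 25.0% in shHNRNPU, against 46.1%, 34.8% and 31.9% of 618 genes of similar length on that chromosome.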
